A study of Sus scrofa with 6 samples.

Results

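The RNF and TRIM genes encode ubiquitin ligases and their relatives. Members were all genes of the 6 gene tables whose pig symbol, looked up from the NCBI gene ID, began with RNF or TRIM and a digit, with TRIM28 left out. This gave 91 genes of 19300, 60 named RNF and 31 named TRIM. Each library held 1 pig oocyte in the germinal vesicle stage, before meiosis resumes, and there were 3 BCB-positive and 3 BCB-negative libraries. BCB is brilliant cresyl blue, a dye that growing oocytes reduce to a colourless form, so that oocytes which stay blue are generally taken as fully grown. All 6 oocytes came, per the labels' protocols, from antral follicles 3 to 6 mm wide, lost their cumulus cells and zona pellucida before lysis, and were not cultured for maturation. The labels name no animal or ovary for any oocyte. Each class therefore stood as 1 sample of 3 cells, and differences between the classes are described without a test.

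RING finger proteins bring a ubiquitin-loaded E2 enzyme together with a substrate, and most RNF and TRIM proteins are ligases of this type. RNF genes share the zinc-binding RING domain and little else, and include membrane proteins of the secretory pathway, chromatin enzymes and cytosolic ligases. Most TRIM proteins, though not all, carry a RING, 1 or more B-boxes and a coiled coil, followed by a variable end that separates the family into structural groups. In oocytes, which store transcripts and proteins for the embryo, ubiquitin ligases help to control meiotic resumption and the removal of maternal proteins.

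Expected counts, the authors' estimates of reads per gene, summed to 7820374 to 9238987 in BCB-positive oocytes and to 7122749 to 7668881 in BCB-negative oocytes. Oocyte identity was checked on 13 marker genes, of which 12 averaged at least 1 FPKM (fragments scaled to transcript length and library depth, so that levels can be compared between genes). Their summed level was 13433 to 26264 FPKM in BCB-positive and 18821 to 30212 FPKM in BCB-negative oocytes. ZP3, ZP4, OOEP and ZP2 made up most of it, at 11426, 5380, 2478 and 1560 FPKM on average over all oocytes. The lowest of these markers were NOBOX at 0.373, NLRP5 at 1.06 and DAZL at 2.8 FPKM. Of 17 cumulus and granulosa cell genes, 12 had a value, and their sum was 30.8 to 39.1 FPKM in BCB-positive and 23.1 to 34.6 FPKM in BCB-negative oocytes. Most of that sum was INHBA, and without it the sums were 3.89 to 7.16 FPKM and 2.99 to 5.16 FPKM. Of 10 stromal, endothelial and blood cell genes, 6 had a value, summing to 3.76 to 4.35 FPKM in BCB-positive and 1.85 to 3.06 FPKM in BCB-negative oocytes. The part of other cells in the results below was not tested. BCB-positive oocyte 3 stood apart, with a mean correlation of 0.874 with the other oocytes across genes, against 0.905 to 0.915 for the others.

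A mean of at least 1 FPKM over the 6 oocytes was reached by 72 members, 53 RNF and 19 TRIM, and these were compared among 11495 genes. The other 7 RNF and 12 TRIM members averaged less than 1 FPKM. Levels of compared members ran over a wide range, with 6 at 100 FPKM or more and 32 at 10 FPKM or more. The median level was 14.5 FPKM for RNF and 4.13 FPKM for TRIM members, against 8.98 FPKM for all genes compared. In BCB-positive oocytes 1, 2 and 3, 51, 52 and 54 RNF members and 17, 16 and 19 TRIM members reached 1 FPKM. In BCB-negative oocytes 1, 2 and 3 the numbers were 52, 47 and 50 RNF members and 17, 15 and 14 TRIM members.

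**Figure D1:**
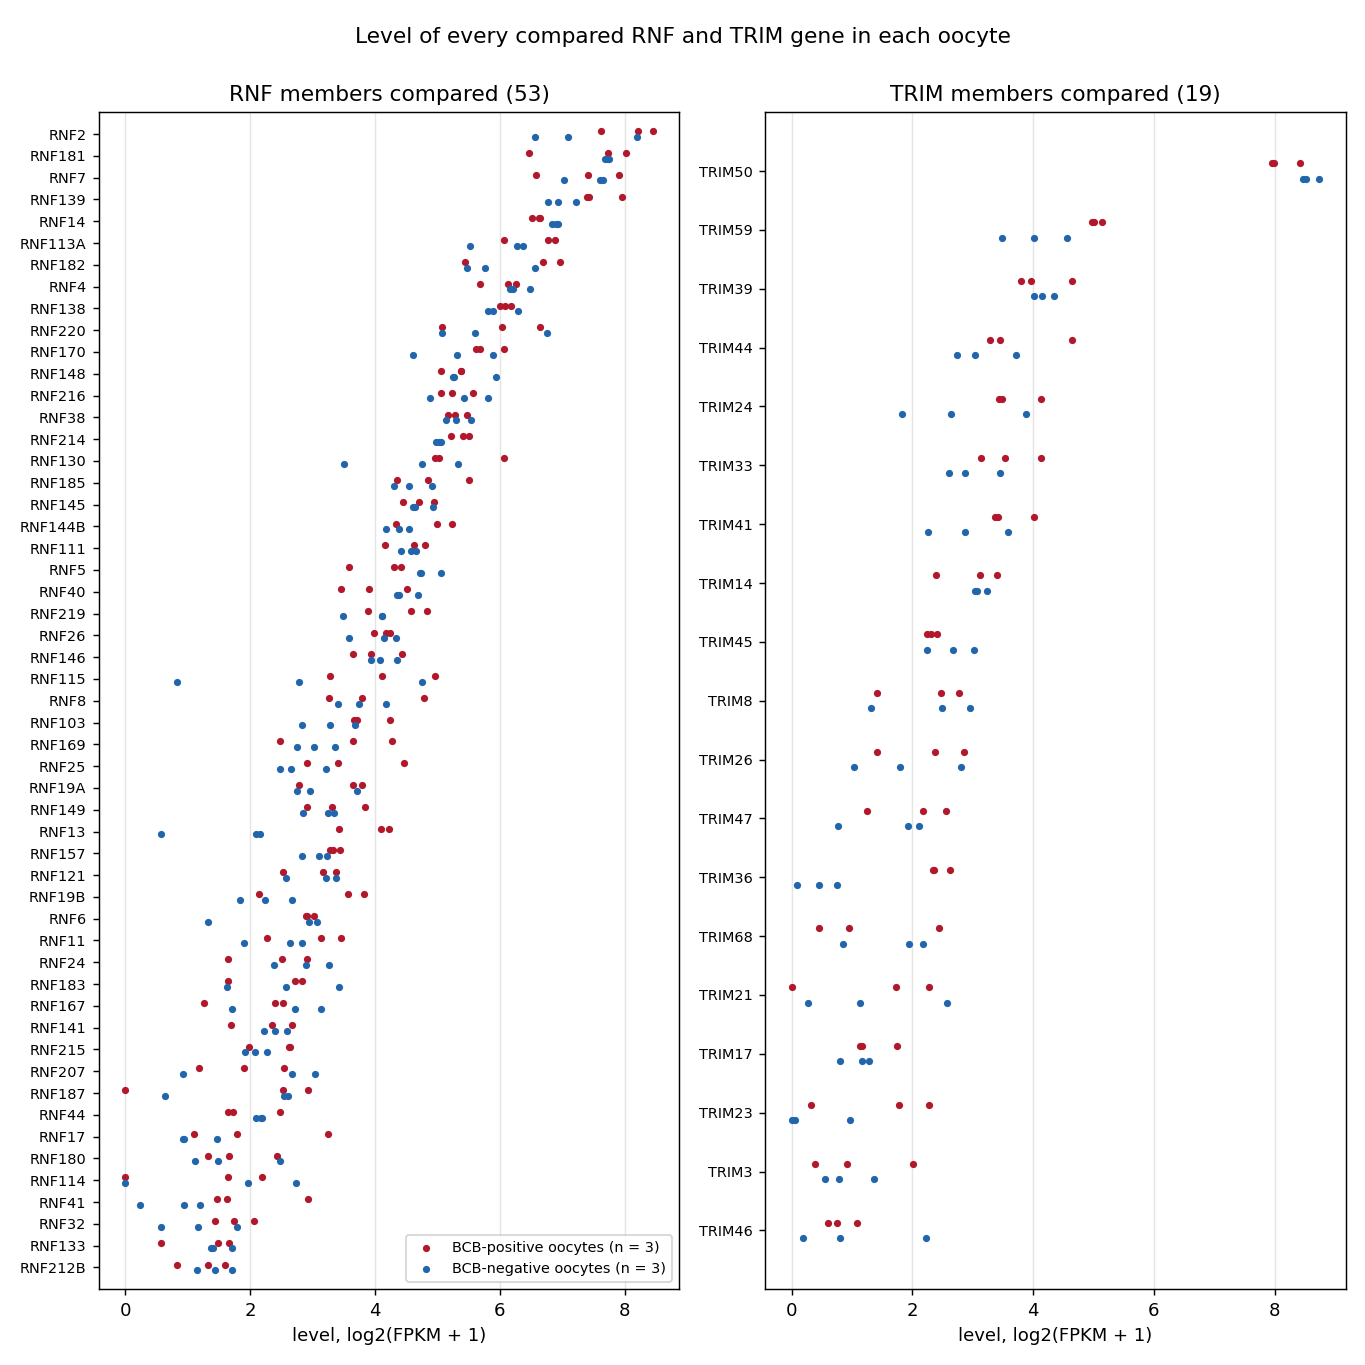
Level of each compared member as log2(FPKM + 1), with 1 point per oocyte, BCB-positive in red above BCB-negative in blue, RNF genes on the left and TRIM genes on the right in order of mean level. TRIM50 stands at 331 FPKM on average, with the next TRIM gene, TRIM59, at 24.0 FPKM, while RNF levels fall off gradually from RNF2 at 227 FPKM.

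The summed level of all RNF genes was 2060, 1889 and 1905 FPKM in BCB-positive oocytes, against 1881, 1564 and 1621 FPKM in BCB-negative oocytes. The classes did not overlap in this sum, by a narrow margin. As a percent of all FPKM in an oocyte the RNF sum did overlap, at 0.262%, 0.233% and 0.285% in BCB-positive and 0.234%, 0.194% and 0.203% in BCB-negative oocytes. The TRIM sum overlapped, at 373, 467 and 418 FPKM in BCB-positive oocytes, against 469.5, 462 and 506 FPKM in BCB-negative oocytes. TRIM50 alone made up 66.0%, 73.4% and 60.4% of the TRIM sum in BCB-positive oocytes and 75.6%, 79.2% and 84.3% in BCB-negative oocytes.

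Most members of both families differed little between the classes. Each gene was measured by its mean log2(FPKM + 1) in BCB-positive oocytes minus that in BCB-negative oocytes, given with the SD within classes, pooled over both. The median difference was 0.12 for the 53 RNF members and 0.27 for the 19 TRIM members, against 0.11 for all genes compared. The family medians themselves varied between oocytes of a class with an SD of 0.21 for RNF and 0.32 for TRIM, each larger than the median of its own family. Class means differed by less than 1.5-fold for 42 RNF members, or 79.2%, and for 12 TRIM members, or 63.2%, against 71.7% of all genes compared.

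A member is called ordered here if its values in the 2 classes did not overlap. Of 53 RNF members, 5 were ordered higher and 2 lower in BCB-positive oocytes, against a background of 7.44% higher and 4.03% lower among all genes compared. Of 19 TRIM members, 2 were ordered higher and 1 lower. Asking also for a 1.5-fold difference left 3 RNF members higher, RNF13, RNF41 and RNF139, and 1 lower, RNF5. The 2 TRIM members higher were TRIM36 and TRIM59, and 0 were lower. The background for this rule was 5.75% higher and 2.66% lower. The RNF counts were near those shares, and the TRIM count exceeded them by about 1 gene. The same shares apply to the groups of members described below, whose counts are too small to be told apart from them.

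**Figure D2:**
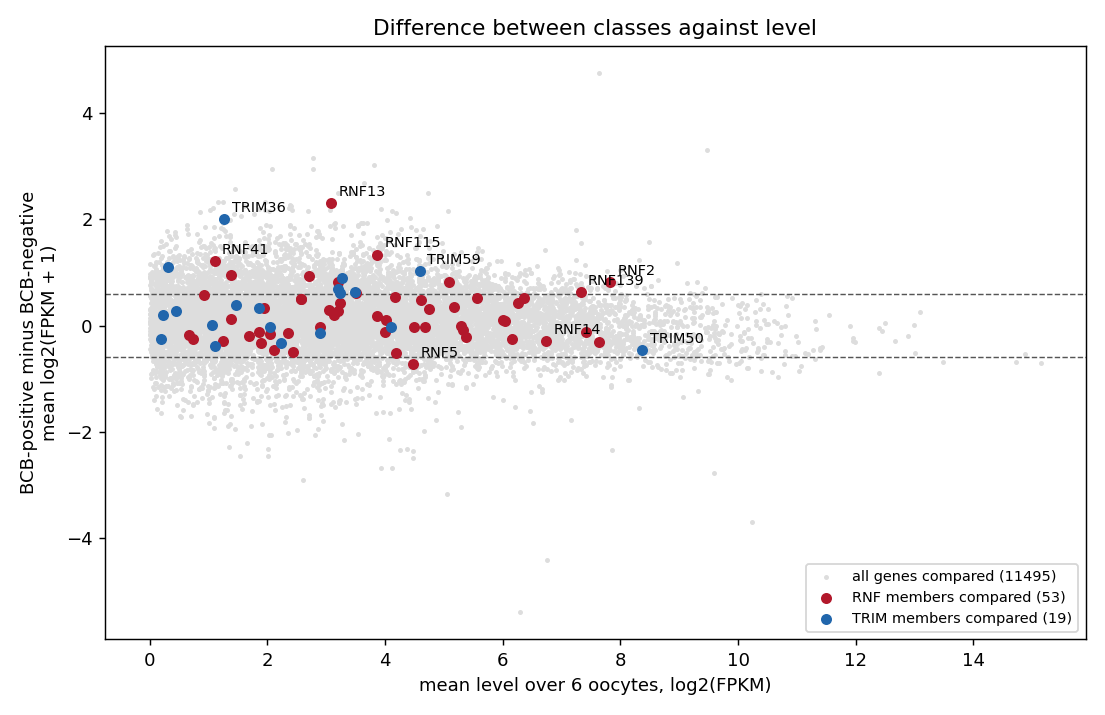
BCB-positive minus BCB-negative difference of mean log2(FPKM + 1) against mean level as log2(FPKM), with all 11495 genes compared in grey, RNF members in red, TRIM members in blue and dashed lines at 1.5-fold. RNF13 at 2.30 and TRIM36 at 2.01 lie highest among the members, and RNF5 at -0.73 lies lowest.

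Among RNF ligases with a protease-associated domain and a transmembrane segment, RNF13 differed most. RNF13 sits in endosomes, lysosomes and the endoplasmic reticulum. It stood at 9.66, 17.7 and 16.1 FPKM in BCB-positive oocytes, against 3.47, 0.49 and 3.28 FPKM in BCB-negative oocytes. All BCB-positive oocytes lay well above the BCB-negative ones, and BCB-negative oocyte 2 was near 0. On the log2 scale the difference was 2.30 (SD 0.71), and 2.21 without BCB-positive oocyte 3. RNF13 rested on 892 expected counts in BCB-positive and 129 in BCB-negative oocytes, which were not whole numbers, as happens when reads are divided between genes. PFN2, a profilin that overlaps RNF13 in the reference annotation, averaged 137 FPKM and differed by 0.01, so RNF13's value is uncertain. Of the 6 compared genes of this group, 1 was ordered higher and 0 lower, against 7.44% and 4.03% of all genes compared. The group's median difference was -0.01.

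The most abundant gene of the same group was RNF148, a close relative of RNF13 with few known functions. RNF148 stood at 40.6, 32.3 and 40.4 FPKM in BCB-positive oocytes, against 37.5, 37.1 and 60.6 FPKM in BCB-negative oocytes, so the classes overlapped. RNF148 lies within CADPS2 in the reference annotation, and CADPS2 averaged 38.1 FPKM and was ordered higher in BCB-positive oocytes, at 0.63 (SD 0.35). Whether reads of RNF148 and CADPS2 were kept apart was not tested.

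Of 11 other membrane-anchored RNF ligases compared, 1 was ordered and 1.5-fold higher and 1 lower. Among all genes compared, 5.75% were higher and 2.66% lower by this rule. Both members, RNF139 and RNF5, reside in the endoplasmic reticulum. RNF139, also called TRC8, helps to degrade membrane proteins and enzymes of sterol synthesis. RNF139 stood at 168, 172 and 248 FPKM in BCB-positive oocytes, against 147, 121 and 108 FPKM in BCB-negative oocytes. Its highest value was in BCB-positive oocyte 3, and the nearest values of the classes were BCB-positive oocyte 1 and BCB-negative oocyte 1. The log2 difference was 0.63 (SD 0.27), just past 1.5-fold, and it fell short of that at 0.44 when BCB-positive oocyte 3 was left out. It was also short at 0.52 when BCB-negative oocyte 3 was left out, and at 0.52 under size-factor scaling. RNF139 overlaps TATDN1, which averaged 545 FPKM and was not ordered, and its counts were not whole, so its value is uncertain.

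RNF5, which marks misfolded proteins of the endoplasmic reticulum for degradation, went the other way. RNF5 stood at 11.03, 18.64 and 20.4 FPKM in BCB-positive oocytes, against 25.3, 25.6 and 32.2 FPKM in BCB-negative oocytes. Its log2 difference was -0.73 (SD 0.34), and -0.89 without BCB-positive oocyte 3. Without BCB-positive oocyte 1, the lowest of the 6, the difference was -0.48 and short of 1.5-fold. RNF185, the closest relative of RNF5, overlapped between classes, at 19.4, 44.3 and 27.9 FPKM in BCB-positive oocytes, against 22.3, 29.0 and 18.8 FPKM in BCB-negative oocytes. RNF185 was chosen after its values were seen.

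**Figure D3:**
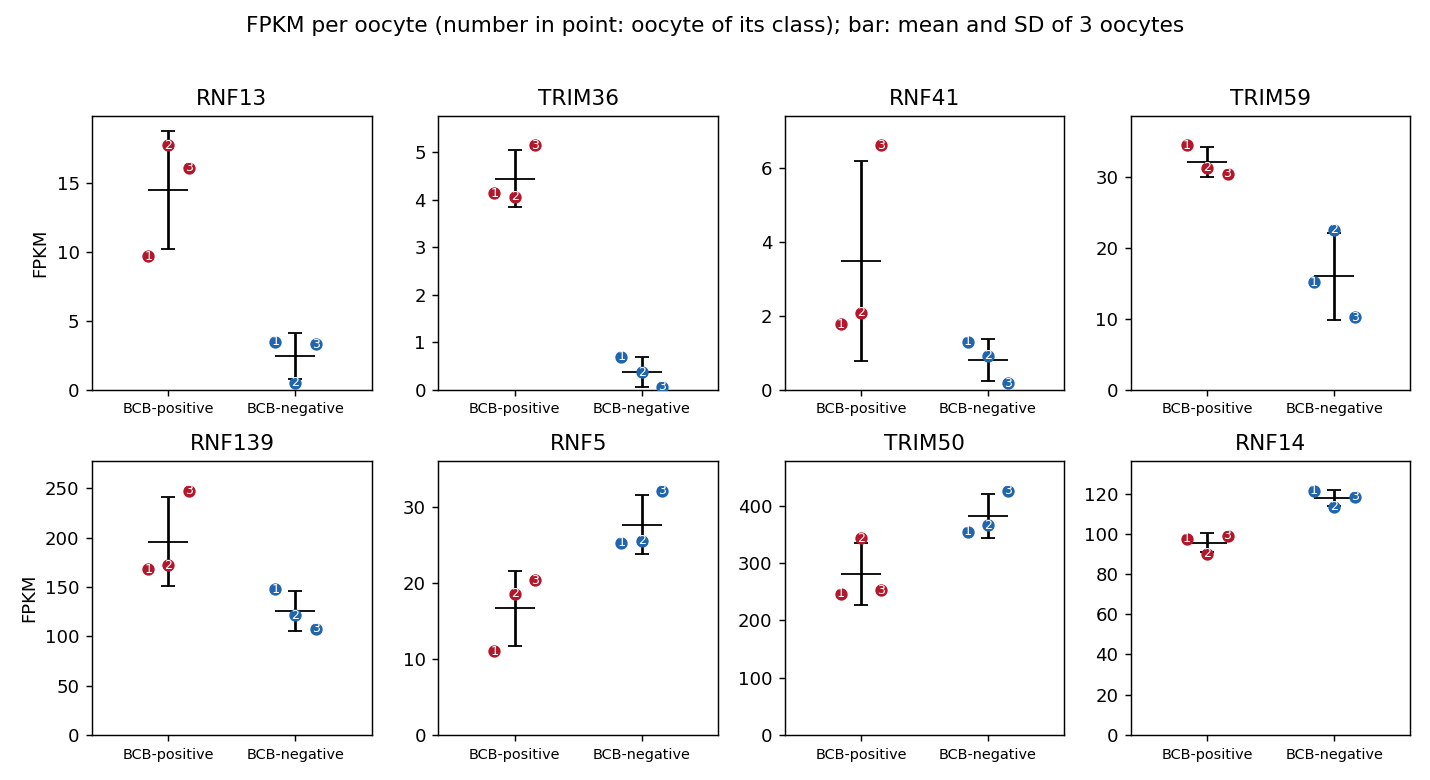
FPKM of the 6 ordered members past 1.5-fold, and of TRIM50 and RNF14, which were ordered by less, with 1 numbered point per oocyte and bars for the mean and SD of 3 oocytes. RNF14 shows the tightest classes, at 90.1 to 99.0 FPKM in BCB-positive and 114 to 122 FPKM in BCB-negative oocytes.

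Nuclear RNF ligases of chromatin and DNA damage signalling were not ordered in either direction for any of the 6 genes compared. Of all genes compared, 7.44% were ordered higher and 4.03% lower. RNF2, the catalytic subunit of Polycomb repressive complex 1, which attaches ubiquitin to histone H2A, was the most abundant RNF gene. RNF2 stood at 295, 195.5 and 349 FPKM in BCB-positive oocytes, against 291, 135 and 94.0 FPKM in BCB-negative oocytes. Its log2 difference was 0.81 with an SD of 0.66, and BCB-negative oocyte 1 was as high as BCB-positive oocyte 1. RNF4, which targets SUMO-modified proteins, differed by -0.25 (SD 0.25), and RNF8, which marks chromatin at DNA breaks, by 0.17 (SD 0.61).

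The partners RNF20 and RNF40 form 1 ligase for histone H2B, and their levels were far apart, a pair chosen after the values were seen. RNF40 stood at 21.8, 9.93 and 14.0 FPKM in BCB-positive oocytes, against 24.8, 19.9 and 19.3 FPKM in BCB-negative oocytes. RNF20 was listed at 0, 0.97 and 2.14 FPKM in BCB-positive oocytes, against 0.26, 0.26 and 0 FPKM in BCB-negative oocytes. For RNF20, 3 counts would be worth between 0.0845 and 0.110 FPKM at the depths of these libraries, so a value of 0 allows a level up to about that, for counting error only. RNF20 counts were not whole.

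Of 3 listed meiosis and germ cell genes of the RNF family, 2 had a value, and these were scarce in these oocytes. RNF212, the other listed gene, had no value and is not covered. RNF17, a Tudor-domain protein of the germ line, stood at 1.15, 2.47 and 8.47 FPKM in BCB-positive oocytes, against 1.76, 0.89 and 0.91 FPKM in BCB-negative oocytes. The classes overlapped, and the log2 difference of 0.94 (SD 0.80) was 0.34 without BCB-positive oocyte 3. RNF212B, a factor of meiotic crossing over, stood at 0.77 to 2.01 FPKM in BCB-positive and 1.21 to 2.27 FPKM in BCB-negative oocytes.

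RING-between-RING ligases, which take ubiquitin onto themselves before passing it on, contained the member with the smallest spread. RNF14, known as a partner of the androgen receptor and as a ligase at stalled ribosomes, stood at 97.7, 90.1 and 99.0 FPKM in BCB-positive oocytes. In BCB-negative oocytes RNF14 stood at 122, 114 and 119 FPKM. The classes did not overlap, with a log2 difference of -0.30 (SD 0.06), less than 1.5-fold. Scaling moved it by more than that SD, to -0.40 with size factors and -0.21 when all oocytes were given the same FPKM sum. None of the other 4 compared genes of this group was ordered, and the group's median difference was 0.27.

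Among the small ligases with a ubiquitin-interacting motif, RNF138, which acts in the trimming of DNA breaks, stood at 62.8 to 71.6 FPKM in BCB-positive and 54.8 to 77.5 FPKM in BCB-negative oocytes. Its difference was 0.09 (SD 0.20). RNF114, a ligase of the same group, was among the most variable RNF genes, at 2.12, 0 and 3.57 FPKM in BCB-positive oocytes, against 5.63, 0 and 2.88 FPKM in BCB-negative oocytes. It rested on 39 and 49 expected counts, and 3 counts would be worth 0.415 to 0.539 FPKM.

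Of the cytosolic ligases, 3 were compared and 0 were ordered. RNF146, which recognises poly(ADP-ribose) on its substrates, stood at 20.65, 14.3 and 11.54 FPKM in BCB-positive oocytes, against 19.3, 15.9 and 14.4 FPKM in BCB-negative oocytes. RNF115 had the largest SD of any RNF member, 1.51, at 30.0, 16.3 and 8.74 FPKM in BCB-positive oocytes, against 5.85, 25.9 and 0.77 FPKM in BCB-negative oocytes. Its log2 difference of 1.33 was smaller than that SD, and lay between 0.35 and 2.32 when BCB-negative oocyte 3 or 2 was left out. RNF115 overlaps POLR3C, at 29.4 FPKM on average, and its counts were not whole, so its value is uncertain.

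The remaining 18 compared RNF genes were in none of these groups, and 1 of them, RNF41, was ordered and 1.5-fold higher. RNF41, or NRDP1, limits the receptor ERBB3. It stood at 1.77, 2.09 and 6.62 FPKM in BCB-positive oocytes, against 1.30, 0.92 and 0.18 FPKM in BCB-negative oocytes. BCB-positive oocyte 3 was far above the rest, and BCB-negative oocyte 3 was the lowest. The difference in log2(FPKM + 1) was 1.22 (SD 0.67) with all oocytes and 0.75 without that oocyte. RNF41 had 287 expected counts in BCB-positive and 58.7 in BCB-negative oocytes, which were not whole.

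Other genes outside the groups included RNF181 and RNF7, the most abundant RNF genes after RNF2. RNF7, or RBX2, is a RING subunit of some cullin ligases. RNF7 stood at 239, 170 and 94.4 FPKM in BCB-positive oocytes, against 195, 199 and 130 FPKM in BCB-negative oocytes. RNF181 stood at 212, 260 and 87.5 FPKM in BCB-positive oocytes, against 215, 204 and 212 FPKM in BCB-negative oocytes. BCB-positive oocyte 3 was the lowest of the 6 for both genes, so that the differences of -0.13 and -0.31 became 0.23 and 0.16 without it. RNF187 was read in few counts, 48 in BCB-positive and 38 in BCB-negative oocytes, and had an SD of 1.37. RNF214 and RNF157 were ordered by less than 1.5-fold, at 0.36 (SD 0.11) and 0.30 (SD 0.16), and were chosen for mention after their values were seen.

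TRIM50 dominated the TRIM family. TRIM50 is a PRY-SPRY gene described in acid-secreting stomach cells of rodents and in the handling of protein aggregates. TRIM50 stood at 247, 343 and 253 FPKM in BCB-positive oocytes, against 355, 366 and 426 FPKM in BCB-negative oocytes. The nearest oocytes were BCB-positive oocyte 2 and BCB-negative oocyte 1, and the classes did not overlap. The log2 difference was -0.46 (SD 0.21), less than 1.5-fold. It was -0.39 without BCB-positive oocyte 3 and passed 1.5-fold, at -0.61, without BCB-positive oocyte 2. Its level stood at percentile 96.7 of all genes compared, higher than any RNF gene, and it rested on at least 3297 counts in each oocyte.

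The other 8 compared PRY-SPRY genes were not ordered, and the median of all 9 was 0.01. TRIM39, which in human cells inhibits the anaphase-promoting complex, stood at 14.6, 24.1 and 12.9 FPKM in BCB-positive oocytes, against 15.1, 19.3 and 16.8 FPKM in BCB-negative oocytes. TRIM21, the cytosolic antibody receptor, was among the most variable TRIM genes, at 0, 3.86 and 2.30 FPKM in BCB-positive oocytes, against 4.96, 1.20 and 0.21 FPKM in BCB-negative oocytes. Its difference was 0.01 with an SD of 1.18, on 104 and 90 counts. TRIM26 and TRIM68, the next most variable, differed by 0.34 (SD 0.82) and -0.38 (SD 0.89).

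TRIM36 had the largest difference of the TRIM family. TRIM36 is a microtubule-associated ligase, and in Xenopus eggs it is needed for the microtubule array that precedes cortical rotation. It stood at 4.13, 4.06 and 5.14 FPKM in BCB-positive oocytes, against 0.69, 0.37 and 0.06 FPKM in BCB-negative oocytes. Values were alike among BCB-positive oocytes and near 0 in BCB-negative oocytes, with 280 and 21 expected counts. The log2 difference was 2.01 (SD 0.26), and 1.92 without BCB-positive oocyte 3. As a low gene it depended on the pseudocount, with a difference of 3.53 at 0.1 FPKM in place of 1. TRIM46, the other compared gene with a COS box, the part that binds microtubules, overlapped between classes and averaged 1.14 FPKM.

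TRIM59, anchored in the endoplasmic reticulum membrane and known as a regulator of innate immune signalling, was the second most abundant TRIM gene. TRIM59 stood at 34.5, 31.3 and 30.5 FPKM in BCB-positive oocytes, against 15.17, 22.54 and 10.23 FPKM in BCB-negative oocytes. BCB-positive oocytes were close together and all above the BCB-negative oocytes. The log2 difference was 1.03 (SD 0.38), 1.06 when BCB-positive oocyte 3 was left out and 0.76 when BCB-negative oocyte 3, the lowest, was left out. TRIM59 overlaps SMC4, a condensin subunit, which averaged 25.4 FPKM and was not ordered, at 0.29. The counts of TRIM59 were whole, but whether reads of TRIM59 and SMC4 were kept apart was not tested.

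The chromatin-associated TRIM24 and TRIM33, co-regulators of nuclear receptors and SMAD proteins, had higher class means in BCB-positive oocytes without being ordered. TRIM24 stood at 10.15, 9.78 and 16.46 FPKM in BCB-positive oocytes, against 13.7, 2.53 and 5.20 FPKM in BCB-negative oocytes. Its difference was 0.90 (SD 0.78), and that of TRIM33 was 0.61 (SD 0.47). Both were highest of the 6 in BCB-positive oocyte 3, and without it the differences were 0.68 and 0.35. That of TRIM24 also moved to 1.45 when BCB-negative oocyte 1, its highest in that class, was left out, and to 0.42 when BCB-negative oocyte 2, its lowest, was left out.

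NHL-repeat TRIM genes, which include the stem cell regulator TRIM71, were scarce. TRIM3 was the only one of 4 with a mean above 1 FPKM, at 3.01, 0.89 and 0.31 FPKM in BCB-positive oocytes, against 0.72, 0.47 and 1.58 FPKM in BCB-negative oocytes. TRIM71, TRIM2 and TRIM32 averaged 0.0483, 0.0267 and 0.0217 FPKM. TRIM44, a TRIM protein with a zinc finger of the kind found in deubiquitinases, led the genes of other structure. TRIM44 stood at 9.90, 8.77 and 24.0 FPKM in BCB-positive oocytes, against 12.1, 7.23 and 5.65 FPKM in BCB-negative oocytes. Its difference of 0.63 (SD 0.63) was 0.21 without BCB-positive oocyte 3.

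**Figure D4:**
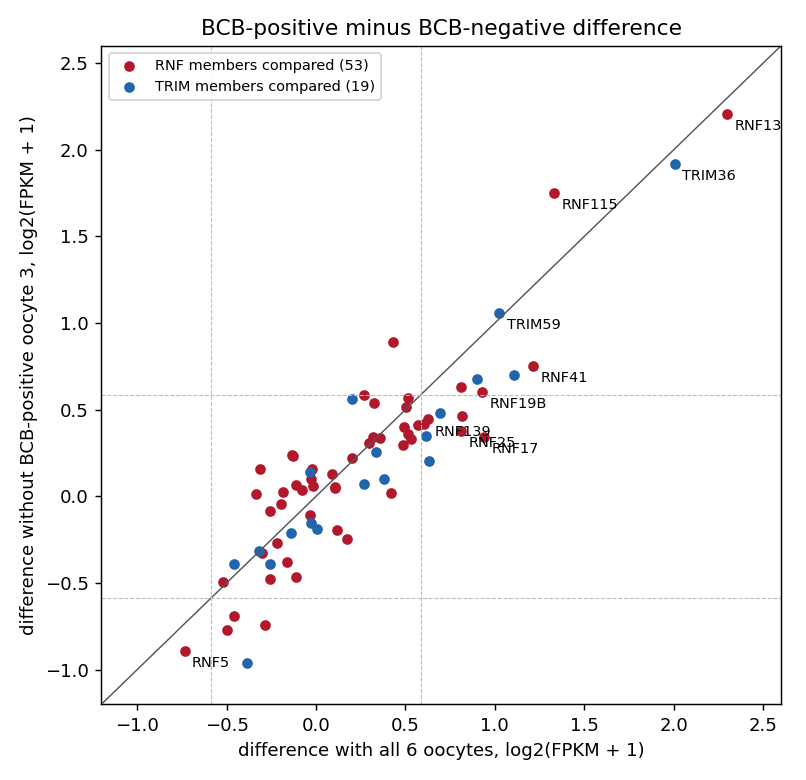
Difference between classes in log2(FPKM + 1) for the 72 compared members, with all 6 oocytes on the horizontal axis and without BCB-positive oocyte 3 on the vertical axis, the diagonal marking equality and dashed lines 1.5-fold. RNF13, TRIM36 and TRIM59 stay near the diagonal, while RNF41 moves to 0.75 and RNF17 to 0.34.

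BCB-positive oocyte 3 held the highest value of the 6 for 15 of 53 RNF members, or 28.3%, and 9 of 19 TRIM members, or 47.4%, against 32.6% of all genes compared. BCB-negative oocyte 1 was highest for 13 RNF members, or 24.5%, against 11.6% of all genes compared. Without BCB-positive oocyte 3 the counts of ordered members at 1.5-fold were again 3 RNF and 2 TRIM higher and 1 RNF lower, against a background of 7.19% higher and 4.4% lower. RNF139 was then replaced by RNF182, a ligase of membranes, named after its values were seen. RNF182 stood at 124, 102 and 42.3 FPKM in BCB-positive oocytes, against 53.0, 43.6 and 93.9 FPKM in BCB-negative oocytes. The oocyte left out was its lowest BCB-positive value, and BCB-negative oocyte 3 remained close below the other BCB-positive oocytes.

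The transcript tables allowed shares of transcripts to be compared for 20 members that list 2 or more transcripts and reach 5 FPKM in all 6 oocytes. A single transcript held at least 80% of the gene's FPKM in every oocyte for 8 of them. The leading share was ordered between classes for 1 member, RNF182, and for 0 members was it ordered and at least 20 percentage points apart. How often the leading share is ordered among all genes was not computed, so the 1 member of 20 has no background to stand against. The leading RNF182 transcript, of 3140 bases, held 91.6%, 85.1% and 89.3% in BCB-positive oocytes and 98.8%, 100% and 100% in BCB-negative oocytes. A transcript of 3172 bases held 6.45%, 14.9% and 7.99% in BCB-positive oocytes and was listed at 0 in BCB-negative oocytes. The lengths of these RNF182 transcripts are close, and whether reads can tell them apart was not tested.

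Transcript use of other members varied between oocytes of a class. The longer TRIM50 transcript, of 1863 bases, held 76.5%, 100% and 100% in BCB-positive oocytes and 74.0%, 77.3% and 92.9% in BCB-negative oocytes. The leading RNF14 transcript, of 3083 bases, held 92.9%, 56.0% and 38.2% in BCB-positive oocytes, against 68.6%, 78.2% and 69.2% in BCB-negative oocytes. For RNF14 the gene's level thus had a narrow spread while the estimated shares of its transcripts did not. RNF111, a ligase of TGF-beta signalling, had transcripts of 4940 and 4915 bases. Its longer one held 0%, 61.7% and 45.6% in BCB-positive oocytes and 100%, 0% and 100% in BCB-negative oocytes. These transcripts differ little in length, and how well reads can separate them was not tested.

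**Figure D5:**
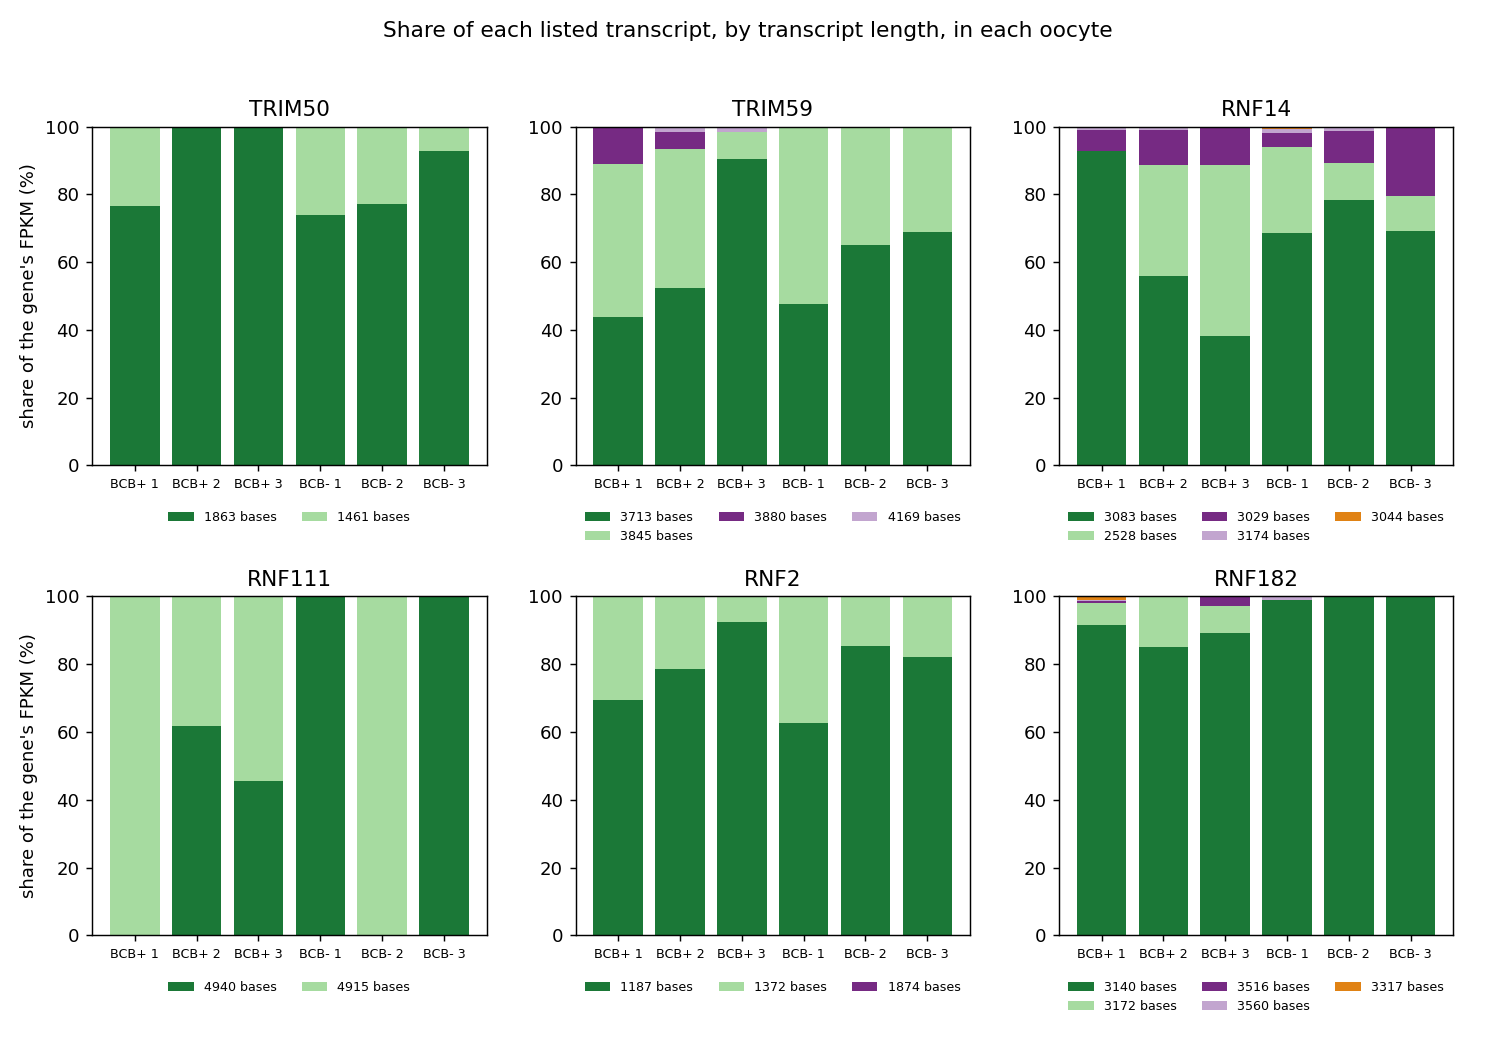
Share of each listed transcript in the gene's FPKM, in percent, for 6 members, with 1 bar per oocyte, BCB-positive (BCB+) on the left, and colours for transcripts named by length. The RNF111 transcript with the larger share is not the same in all oocytes of either class, while RNF182 is led by the same transcript in all 6.

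The E2 conjugating enzymes, which carry ubiquitin and work with these ligases, were described as the other genes of the pathway. Of 30 E2 genes listed, 26 had a value and 25 were compared, with 5 ordered higher and 0 lower, and with 3 at least 1.5-fold higher. Among all genes compared, 7.44% were ordered higher and 5.75% were also at least 1.5-fold higher. The median E2 difference was 0.32, against 0.11 for all genes compared. Leaving out BCB-positive oocyte 3 gave an E2 median of 0.11, against 0.05 for all genes compared. Ordered and at least 1.5-fold higher were then 4 E2 genes, against a background of 7.19%. These were UBE2J1, UBE2Q2, UBE2D3 and UBE2D4, and UBE2N was not among them. UBE2D3 and UBE2D4 were named after their values were seen. UBE2D3 rested on 74.8 expected counts in BCB-positive and 9.34 in BCB-negative oocytes, which were not whole, and had an SD of 1.61. With all 6 oocytes the higher genes were UBE2J1, anchored in the endoplasmic reticulum, UBE2Q2, and UBE2N, which builds signalling chains with UBE2V1 or UBE2V2. UBE2J1 stood at 6.27, 5.11 and 16.6 FPKM in BCB-positive oocytes, against 2.49, 2.94 and 2.36 FPKM in BCB-negative oocytes. Its log2 difference of 1.36 (SD 0.58) was 0.89 without BCB-positive oocyte 3. UBE2J1 had 357 expected counts in BCB-positive and 101 in BCB-negative oocytes, which were not whole.

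UBE2Q2 stood at 35.5, 32.4 and 49.2 FPKM in BCB-positive oocytes, against 23.2, 19.5 and 18.6 FPKM in BCB-negative oocytes, a log2 difference of 0.89 (SD 0.25). UBE2N stood at 133, 167 and 231 FPKM in BCB-positive oocytes, against 91.3, 121 and 105 FPKM in BCB-negative oocytes. Its difference of 0.71 (SD 0.32) fell short of 1.5-fold at 0.50 without BCB-positive oocyte 3. The most abundant E2 gene was UBE2C, the partner of the anaphase-promoting complex, at 745, 850 and 777 FPKM in BCB-positive oocytes, against 561, 676 and 717 FPKM in BCB-negative oocytes. UBE2C was ordered by less than 1.5-fold, at 0.28 (SD 0.15), as was UBE2E3, at 0.42 (SD 0.14). UBE2T, which acts in the repair of DNA crosslinks, and UBE2V2, the partner of UBE2N, overlapped between classes, at -0.10 (SD 0.33) and 0.45 (SD 0.49).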

How the data were processed

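Per the labels' protocols, cDNA of each oocyte was made from a poly(dT) primer (24 nt) and PCR-amplified, and no molecular identifiers are named, so floors cover counting error only. BWA, Cufflinks, RSEM and build Sscrofa10.2 are named in the submitters' processing notes, with roles and versions not given in the sources used here. For each gene and each transcript, the deposited tables hold an FPKM, an expected count and a length. Expected counts, as the authors deposited them, are estimates that need not be whole. FPKM values were scaled by the authors to length and depth and rounded to 2 decimals. A gene absent from an oocyte's table was set to 0.

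Symbols and overlapping genes came from a RefSeq table of Sscrofa11.1, in which 13936 of 19300 gene IDs matched. Overlaps were taken from the coordinates of Sscrofa11.1, and whether the genes also overlap in Sscrofa10.2 was not tested. A further 40 family symbols had no matching gene ID and were not analysed here. Differences were of mean log2(FPKM + 1) with a pseudocount of 1 FPKM, over genes averaging at least 1 FPKM, which understates those of low genes. Of the 72 compared members, 13 had counts off a whole number by over 0.001, and 23 overlapped another protein-coding gene. Among the 13 were RNF8, RNF17, RNF181 and TRIM33, for which this is not stated above. Members, lists and rules were chosen with earlier results of these data known. Genes named were members and E2 genes ordered and 1.5-fold apart, the 5 most abundant and 3 most variable members of each family, the leading and ordered members of each group, the 4 most abundant E2 genes, members at 0 throughout 1 class only, and members whose leading transcript share was ordered by at least 20 points. RNF4, RNF8, RNF111, RNF212B, TRIM2, TRIM32, TRIM33, TRIM46 and TRIM71 were added after their values were seen. Python 3.11.15 with pandas 2.3.3 and numpy 2.4.6 was used. Alternatives were a pseudocount of 0.1 FPKM, size factors, a common FPKM sum, CPM from the counts, a minimum mean of 5 FPKM, no minimum, and leaving out each oocyte in turn.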

Additional observations from a re-analysis of the deposited data

How the results depend on the processing

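The RNF median difference stayed above 0 under every alternative run, between 0.04 with size factors and 0.24 with a minimum mean of 5 FPKM, and between 0.16 and 0.24 with an oocyte left out. The TRIM median was 0.62 with a minimum of 5 FPKM, 0.07 with no minimum, 0.44 with a pseudocount of 0.1 FPKM, and 0.13 to 0.37 with an oocyte left out. The E2 median was 0.11 to 0.43 with an oocyte left out. For all genes compared the median was 0.02 with size factors and 0.19 with a common FPKM sum. RNF members ordered and at least 1.5-fold higher numbered 3, and 2 with size factors, 2 with a minimum of 5 FPKM, 4 with a common sum and 4 with CPM. The share of all genes compared that was higher by this rule was 4.54%, 5.65%, 7.21% and 6.06% in those runs, in the same order, against 5.75%. Leaving out an oocyte gave 3 to 8 higher and 1 to 3 lower. TRIM members higher numbered 2, and 1 with a minimum of 5 FPKM, since TRIM36 was then not compared. Leaving out an oocyte gave 2 to 6 higher and 0 to 1 lower. Leaving out BCB-positive oocyte 1 or 2 gave 8 RNF genes higher each, BCB-negative oocyte 1 gave 7 and BCB-negative oocyte 2 gave 5, with 3 RNF genes lower for the last. Leaving out BCB-positive oocyte 2 gave 5 TRIM genes higher and 1 lower, and BCB-negative oocyte 1 gave 6 higher. The share of all genes compared that was higher by this rule then grew as well, to 13.7% and 10.3% when BCB-positive oocyte 1 or 2 was left out, and to 11.1% and 8.73% for BCB-negative oocyte 1 or 2, against 5.75% with all oocytes. The share lower was 5.46% with BCB-positive oocyte 2 left out and 5.01% with BCB-negative oocyte 2 left out, against 2.66%. Among named genes, RNF2 and TRIM23 passed the rule without BCB-positive oocyte 2 or BCB-negative oocyte 1, RNF17 without BCB-positive oocyte 1 or BCB-negative oocyte 1, TRIM33 without BCB-positive oocyte 2 or BCB-negative oocyte 2, TRIM24, TRIM44 and RNF130 without BCB-negative oocyte 1, and RNF115 without BCB-negative oocyte 2. RNF40 passed it as lower without BCB-positive oocyte 1. Of the values of named genes under alternatives, 369 moved by less than the SD between oocytes and 6 by more. Those 6 were of RNF14, RNF41 and TRIM36. That SD was each gene's own, so a gene that varies much can hardly pass it, and the 369 are no measure of stability. They include RNF115, at 0.35 without BCB-negative oocyte 3 against 1.33 with all. They also include RNF181, at 0.16 without BCB-positive oocyte 3 against -0.31, and RNF139, then at 0.44 and short of 1.5-fold. Another minimum cannot move the difference of a single gene, and such values are among the 369. An ordered difference cannot change sign when an oocyte is left out or the pseudocount is changed, so its sign was no check in those runs. No paired analysis was possible because the labels tie no oocyte number to an animal, day or batch. Depth limits genes with under 100 counts, such as RNF114, RNF187 and TRIM36 in BCB-negative oocytes.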

Other observations

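TRIM52 averaged 0.353 FPKM. A second gene ID, whose transcript accession the reference table assigns to TRIM52, averaged 1.07 FPKM and was not counted as a member, since the symbol was taken from the gene ID. The TRIM gene next to the limit for comparison, TRIM35, averaged 0.83 FPKM, and its values were 0.54, 1.62 and 1.25 FPKM in BCB-positive oocytes, against 1.19, 0 and 0.38 FPKM in BCB-negative oocytes.

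TRIM23, a TRIM protein with an ARF-type GTPase domain, had the second largest difference among TRIM genes without being ordered. It stood at 2.41, 0.24 and 3.82 FPKM in BCB-positive oocytes, against 0.95, 0 and 0.04 FPKM in BCB-negative oocytes. The log2 difference was 1.11 (SD 0.81), on 123 counts in BCB-positive and 23 in BCB-negative oocytes, and BCB-positive oocyte 2 lay among the BCB-negative values. RNF130, a transmembrane relative of RNF13, differed by 0.82 (SD 0.79) and was highest in BCB-positive oocyte 3, at 65.8 FPKM, and lowest in BCB-negative oocyte 2, at 10.3 FPKM. TRIM23 and RNF130 were chosen after their values were seen.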
